A study of Mus musculus with 8 samples.

Results

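The nuclear-encoded subunits of the mitochondrial respiratory chain were examined as a set of 59 genes, taken by a list of names that used no measured value. The list holds 35 subunits of complex I, 9 of complex III, 14 of complex IV and the gene of the mobile carrier cytochrome c (Cycs), out of 19751 genes named on the array. Ndufa4 was counted with complex IV, with which its product associates. All 59 genes were well above background on all 8 arrays.

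RNA was measured in AtT20 cells, a mouse pituitary corticotroph tumor line that secretes ACTH, in 4 control samples kept without agonist and in 4 samples given the RXR agonist HX630 at 10 μM. Both groups were kept in medium with 1 % stripped serum and were harvested at 48 hr. RXRs are nuclear receptors that bind DNA as dimers, often with another nuclear receptor. Signals were scaled within each array, so these values give neither the number of cells nor the total RNA of a cell. A change in all cells and a change in some of them cannot be told apart.

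The respiratory chain passes electrons from NADH and ubiquinol to oxygen and pumps protons across the inner mitochondrial membrane. Complex I oxidizes NADH, complex III passes electrons from ubiquinol to cytochrome c, and complex IV (cytochrome c oxidase) reduces oxygen. A few subunits are encoded in mitochondrial DNA, and the nuclear genes described here encode the rest. Several complex IV subunits exist as paralogs, a general form and a form best known from heart and skeletal muscle (Cox6a2, Cox7a1) or from lung and oxygen-poor cells (Cox4i2).

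In the 8 arrays, each of 1 sample and 1 dye, the 75th percentile of intensity was 1466 to 2030 in the control group and 1966 to 2071 in the HX630 group. The share of probes well above background was 69.7% to 73.5%. Signals below are log2 intensities minus the 75th percentile of their array, so that 0 stands for that percentile, and differences are HX630 minus control. Log2 signals of 2 arrays correlated with r of 0.994 to 0.998 within groups and 0.978 to 0.984 between groups, across probes, which are not independent replicates. All 6 corticotroph markers examined, among them Pomc, were above background on all 8 arrays. Their summed signal, with the 75th percentile as 1, was 275.9 to 341.9 in control and 199 to 209.1 in HX630. Pomc had the highest signal of them (mean 7.90 in control) and weighs most in this sum. By gene, 4 markers were lower in HX630 and 2 were higher, Neurod1 by 0.72 and Crhr1 by 1.11. Of 6 leukocyte markers, 5 had a probe and summed to 2.65 to 3.17 in control and 1.20 to 1.45 in HX630. Of these, 4 were tested, while Lyz2 was not above background on any array. Cd3e weighs most in this sum, with mean signals of 1.17 in control and -0.27 in HX630. Csf1r, the next highest of those tested, had -0.85 and -1.56. The other pituitary hormone genes summed to at most 0.232 and fibroblast markers to at most 0.15. The part of the leukocyte markers in the results below was not tested. The arrays lay on 2 slides, each holding 1 group, so that slide and treatment cannot be told apart.

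A gene was called when its adjusted p was below 0.01 and its fold change above 1.5. It is said below to have risen or fallen when the adjusted p alone passed. HX630 was associated with small declines of many respiratory chain genes and with rises of 2 muscle isoforms of complex IV. Of the 59 genes, 32 fell and 3 rose by the adjusted p, and 24 did not pass. Among all 15320 genes tested, 27.2% fell and 24.5% rose. The fold threshold was passed by 2 members, both higher, and by no member in the lower direction, against 8.43% of all genes higher and 11.1% lower.

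The changes of the 59 genes ranged from -0.52 to 0.65 on the log2 scale, with a median of -0.19 against -0.030 for all genes. The groups did not overlap for 39 members with lower signals in HX630, against 32.5% of all genes, nor for 4 with higher signals, against 29.2%. The scaling between arrays set the sign of the median. With spike-in control probes as the reference, a setting added after the data were seen, the median of all genes moved to 0.19 and that of the members to 0.024, which left the members 0.16 below all genes, as in the values above. With quantile normalization the member median was -0.079, and 16 members fell while 7 rose. These genes were also bright. Of the 59, 47 stood among the 1532 brightest of all genes tested, whose median change was -0.10, with 567 falling. The part of signal brightness in the decline was not tested.

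**Figure D1:**
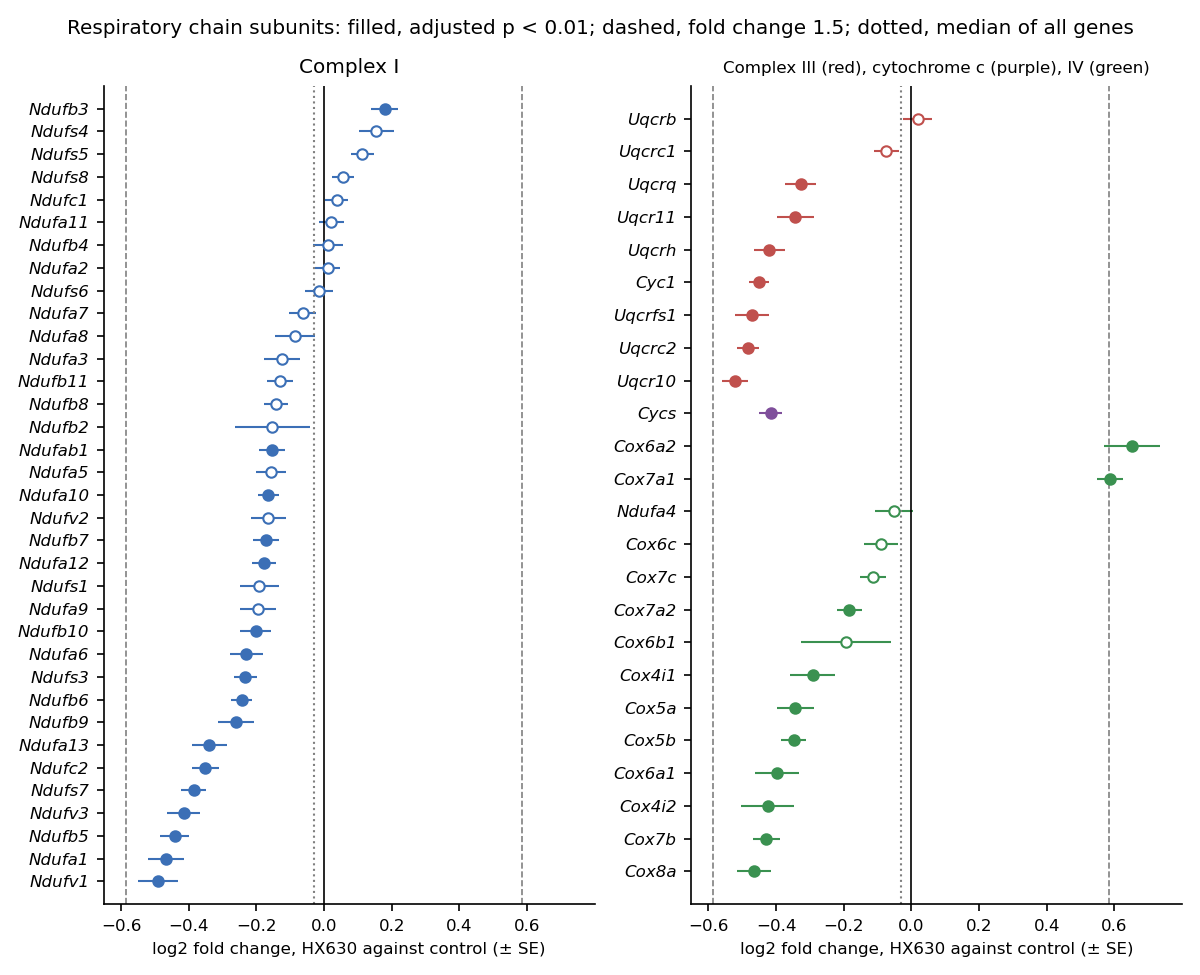
Log2 fold change of the 59 genes, HX630 against control, with the standard error (4 arrays in each group), by complex. Filled symbols passed an adjusted p of 0.01, dashed lines mark a fold change of 1.5 and the dotted line the median of all genes (-0.030). Most points lie left of 0 in this scaling, and Cox6a2 and Cox7a1 stand at 0.65 and 0.59; with spike-in scaling the member median is 0.024.

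**Figure D2:**
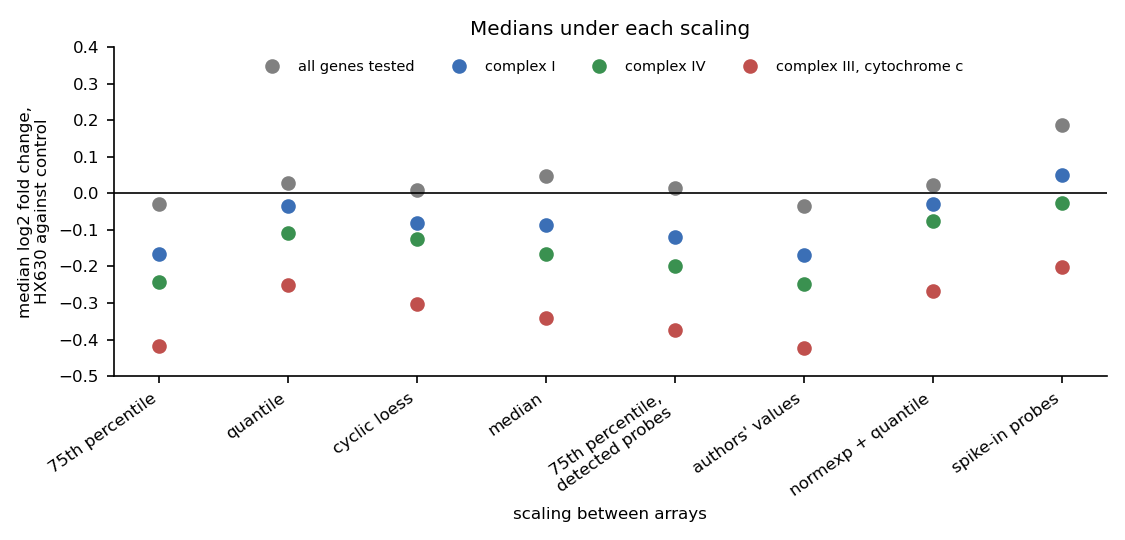
Median log2 fold change of each complex and of all genes tested under 8 ways of scaling the arrays. Complex III with cytochrome c lies below 0 under all 8 (-0.20 to -0.42) and every complex lies below the median of all genes, while complex I stands at 0.051 with spike-in probes.

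Array by array, the decline stood in each HX630 sample. Against the mean of the controls, the median of the 59 genes was 0.019, 0.048, -0.059 and -0.0057 on control arrays 1 to 4. On the HX630 arrays it was -0.22, -0.19, -0.16 and -0.19, below every control array. The number of members under their control mean was 23, 5, 53 and 32 on the control arrays and 50, 50, 47 and 49 on the HX630 arrays. Control arrays 1 and 2 had a lower overall intensity (1466 and 1491) than control arrays 3 and 4 (2030 and 1833). Without those dimmer arrays, a comparison added after the data were seen, the member median was -0.18, 25 members fell and 2 rose. The declines differed in size between complexes. For complex III with cytochrome c the array medians were -0.39, -0.45, -0.42 and -0.41 in HX630, for complex IV -0.29, -0.26, -0.21 and -0.25, and for complex I -0.17, -0.17, -0.15 and -0.17. No test of the difference between complexes was made.

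**Figure D3:**
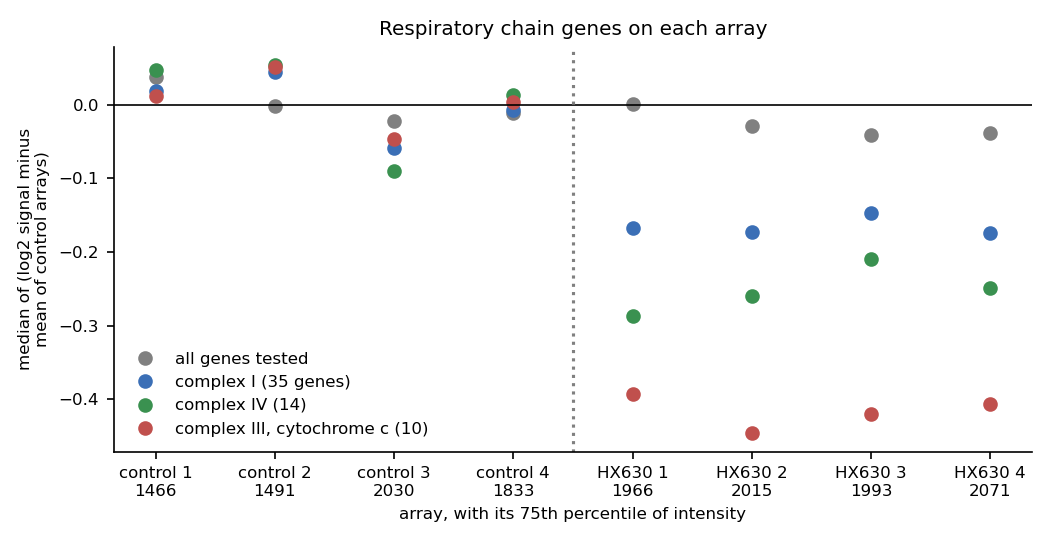
Median deviation of each complex and of all genes tested from the mean of the 4 control arrays, on the log2 scale, for each of the 8 arrays, with the array's 75th percentile of intensity under its name. All 4 HX630 arrays lie below all control arrays for each complex, with complex III and cytochrome c lowest (-0.39 to -0.45).

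To show what stands upstream of these genes, promoter windows were read for genes that moved apart. RefSeq windows of 300 bases on GRCm38.p6 were held for 48 of the 59 members (50 windows). The genes Ndufa2, Cyc1, Cox4i1, Uqcrb, Uqcrc2, Cox6c, Cox4i2, Uqcrq, Cox6a2, Ndufs1 and Ndufb9 were without one. Short motifs of factors known to act on respiratory genes were searched on both strands: the core of the NRF1 palindrome (CGCNTGCG), the ETS core bound by GABP (CCGGAAG), the site of the estrogen-related receptors, ERR (AAGGTCA), and YY1 (AANATGGC). Matches of different motifs overlapped in 0 member windows. The sequences run 5′ to 3′ along the gene, with matches on either strand in capitals. Cox7a1 and Cox7a2 are shown because this pair moved in opposite directions, Cox6a1, Cox8a, Uqcr10 and Ndufb5 because they fell, and Ndufs5 because it holds an ERR match and did not fall.
Cox7a1, chr7:30183921-30184220, + strand: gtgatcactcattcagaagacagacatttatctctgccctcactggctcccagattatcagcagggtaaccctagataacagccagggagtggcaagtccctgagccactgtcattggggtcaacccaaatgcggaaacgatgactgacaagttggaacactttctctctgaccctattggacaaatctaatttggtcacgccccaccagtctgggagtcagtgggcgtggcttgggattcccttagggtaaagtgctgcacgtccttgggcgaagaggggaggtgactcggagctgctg
Cox7a2, chr9:79759804-79760103, - strand: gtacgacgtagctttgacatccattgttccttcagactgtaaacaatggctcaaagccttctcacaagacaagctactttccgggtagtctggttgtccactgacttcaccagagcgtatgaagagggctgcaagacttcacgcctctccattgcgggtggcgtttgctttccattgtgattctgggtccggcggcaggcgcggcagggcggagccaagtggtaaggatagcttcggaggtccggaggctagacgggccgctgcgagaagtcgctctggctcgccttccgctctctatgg
Cox6a1, chr5:115348909-115349208, - strand: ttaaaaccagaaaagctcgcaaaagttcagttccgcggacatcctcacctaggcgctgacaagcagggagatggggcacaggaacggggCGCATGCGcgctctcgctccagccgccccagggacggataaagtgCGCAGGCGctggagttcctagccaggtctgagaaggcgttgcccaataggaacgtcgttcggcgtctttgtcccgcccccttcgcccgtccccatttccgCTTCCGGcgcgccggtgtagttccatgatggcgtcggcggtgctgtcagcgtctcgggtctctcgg
Cox8a, chr19:7217567-7217866, - strand: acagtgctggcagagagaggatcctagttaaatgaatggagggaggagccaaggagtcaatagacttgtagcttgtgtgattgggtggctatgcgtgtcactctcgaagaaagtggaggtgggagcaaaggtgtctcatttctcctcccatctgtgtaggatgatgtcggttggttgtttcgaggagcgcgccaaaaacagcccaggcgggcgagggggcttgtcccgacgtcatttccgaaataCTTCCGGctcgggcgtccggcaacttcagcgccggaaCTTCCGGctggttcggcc
Uqcr10, chr11:4704295-4704594, - strand: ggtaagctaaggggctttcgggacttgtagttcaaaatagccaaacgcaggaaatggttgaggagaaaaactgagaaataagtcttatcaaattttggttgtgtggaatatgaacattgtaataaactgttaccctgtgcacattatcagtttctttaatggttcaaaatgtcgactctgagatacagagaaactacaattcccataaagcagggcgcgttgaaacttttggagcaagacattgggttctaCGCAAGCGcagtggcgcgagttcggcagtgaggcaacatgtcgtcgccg
Ndufb5, chr3:32736813-32737112, + strand: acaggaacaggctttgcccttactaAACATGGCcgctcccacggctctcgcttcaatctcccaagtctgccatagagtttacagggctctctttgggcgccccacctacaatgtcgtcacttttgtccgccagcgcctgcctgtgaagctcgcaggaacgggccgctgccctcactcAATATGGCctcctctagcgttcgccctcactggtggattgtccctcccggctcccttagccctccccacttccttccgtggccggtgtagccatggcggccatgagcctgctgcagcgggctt
Ndufs5, chr4:123718137-123718436, - strand: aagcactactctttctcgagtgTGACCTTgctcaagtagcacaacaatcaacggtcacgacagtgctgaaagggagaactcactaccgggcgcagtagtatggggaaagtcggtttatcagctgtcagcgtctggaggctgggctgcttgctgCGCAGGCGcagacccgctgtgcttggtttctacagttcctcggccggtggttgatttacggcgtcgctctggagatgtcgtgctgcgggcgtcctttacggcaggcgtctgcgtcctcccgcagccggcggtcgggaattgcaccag

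The Cox7a1 and Cox7a2 windows held none of the 4 motifs. The Cox6a1 window held 2 NRF1 matches and 1 ETS match, Cox8a 2 ETS matches, Uqcr10 1 NRF1 match, Ndufb5 2 YY1 matches, and Ndufs5 1 NRF1 and 1 ERR match. Over the 50 member windows, the NRF1 core stood in 34%, against 8.21% of the 32851 windows of all genes. The YY1 motif stood in 26% against 6.05%, the ETS core in 18% against 8.86%, and the ERR site in 6% against 4.72%. At least 1 motif was found for 32 members and none for 16. The 3 members with an ERR match were Ndufb2, Ndufb4 and Ndufs5, and none of them fell, against 26 of the 45 without one. Of 15 members with an NRF1 match 7 fell, against 19 of 33 without, as counted with the core. With G before the core and C after it, a longer form, the motif stood in 20% of member windows against 4.60% of all, and 2 of 9 members with it fell against 24 of 39 without, so that this count depended on the length searched. For the ETS core, 7 of 9 members with a match fell, against 19 of 39 without. Of 13 members with a YY1 match 4 fell, against 22 of 35 without. These are matches of letters in a short window and say nothing on binding.

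Complex III and the carrier next to it showed the lowest values. Of these 10 genes, 8 fell and 2 did not pass, and the median change was -0.42. Under the other scalings this median stayed below 0, from -0.42 with the authors' values to -0.20 with spike-in probes.

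Uqcr10, a small subunit of complex III, gave the lowest value of the 59. Its signals were 5.29, 5.32, 5.20 and 5.24 on the control arrays and 4.79, 4.72, 4.75 and 4.71 on the HX630 arrays. The groups did not overlap. Uqcr10 fell by 0.52 on the log2 scale (SE 0.038, adjusted p = 1.33e-05), to 69.6% of control. Uqcrc2, one of the large core proteins that carry no redox group, had signals of 4.37, 4.36, 4.29 and 4.32 in control and 3.87, 3.85, 3.85 and 3.83 in HX630. It fell by 0.48 (SE 0.032, adjusted p = 7.17e-06), again without overlap. The Rieske iron-sulfur protein gene Uqcrfs1, which takes the electron from ubiquinol, had signals of 4.07, 4.06, 3.95 and 3.96 in control and 3.64, 3.54, 3.52 and 3.46 in HX630. It fell by 0.47 (SE 0.050, adjusted p = 1.11e-04), to 72.2% of control. These falls kept an adjusted p below 0.01 under every alternative tried, with a highest value of 9.14e-04 for Uqcr10, 0.00214 for Uqcrc2 and 0.00173 for Uqcrfs1.

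Cytochrome c1 (Cyc1), the core subunit of complex III that hands the electron to cytochrome c, had signals of 5.14, 5.10, 5.10 and 5.16 in control and 4.67, 4.68, 4.68 and 4.66 in HX630. It fell by 0.45 (SE 0.030, adjusted p = 8.34e-06). Cycs, the carrier that docks there, had signals of 4.66, 4.68, 4.62 and 4.72 in control and 4.25, 4.23, 4.24 and 4.29 in HX630. Cycs fell by 0.42 (SE 0.034, adjusted p = 2.58e-05), to 74.9% of control, and with spike-in scaling its adjusted p was 0.0338. Uqcrh, the acidic hinge protein near cytochrome c1, fell by 0.42 and Uqcr11 by 0.34. Uqcrq, another small subunit, fell by 0.33 (SE 0.046, adjusted p = 4.68e-04), but its change was -0.039 after quantile normalization (adjusted p = 0.299) and 0.072 after normexp background correction followed by quantile normalization, and the mean of its 2 probes did not pass (adjusted p = 0.413). Not every subunit took part. Uqcrc1, the partner of Uqcrc2 in the core, had signals of 2.51 to 2.63 in control and 2.46 to 2.49 in HX630, with a change of -0.07 (adjusted p = 0.112) whose sign turned under quantile, median and spike-in scaling. Uqcrb had a change of 0.02 (SE 0.043, adjusted p = 0.73), with signals of 3.64 to 3.75 in control and 3.64 to 3.79 in HX630.

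In complex I, 16 of 35 genes fell, 1 rose and 18 did not pass, with a median change of -0.16 that turned to 0.051 with spike-in scaling. The 6 core subunits on the list, all of the arm that faces the matrix, had a median of -0.21 with 3 that fell. The 29 accessory subunits, which surround the core, had a median of -0.15 with 13 that fell and 1 that rose.

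Ndufv1, the core subunit that binds NADH and the flavin, had signals of 5.20, 5.34, 5.27 and 5.27 in control and 4.69, 4.74, 4.93 and 4.76 in HX630. The groups did not overlap, and Ndufv1 fell by 0.49 (SE 0.059, adjusted p = 2.16e-04), to 71.2% of control. With spike-in scaling its change was -0.28 and did not pass (adjusted p = 0.0231). The other core genes that fell were Ndufs7 by 0.39 and Ndufs3 by 0.23. Ndufs1 and Ndufv2, which hold iron-sulfur clusters, had changes of -0.19 (adjusted p = 0.0216) and -0.17 (adjusted p = 0.0258). The iron-sulfur subunit gene Ndufs8 had a change of 0.06 (adjusted p = 0.184).

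Among accessory subunits, Ndufa1 had signals of 6.10, 6.06, 5.88 and 5.97 in control and 5.59, 5.51, 5.53 and 5.52 in HX630. It fell by 0.47 (SE 0.053, adjusted p = 1.58e-04), but by 0.10 with an adjusted p of 0.215 when normexp correction and quantile normalization were used together. Ndufb5, a subunit of the membrane arm, had signals of 3.32, 3.47, 3.36 and 3.38 in control and 2.95, 2.90, 2.99 and 2.92 in HX630. Ndufb5 fell by 0.44 (SE 0.042, adjusted p = 5.61e-05), again with no overlap. Its dimmer probe fell by 0.20 (adjusted p = 0.00745). With spike-in scaling the Ndufb5 change was -0.23 and did not pass (adjusted p = 0.0196). Ndufv3 fell by 0.42 by its brighter probe and by 0.71 by a dimmer one, the only probe of the 76 for these genes that passed the fold threshold downward.

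Ndufb3, a further membrane-arm subunit, was the one complex I gene that rose with the 75th percentile scaling used here. Its signals were 4.24, 4.34, 4.31 and 4.36 in control and 4.45, 4.47, 4.54 and 4.51 in HX630, without overlap. The rise was 0.18 (SE 0.039, adjusted p = 0.00504) and did not pass without control array 3 (0.0142) or without HX630 array 2 (0.014), 3 (0.017) or 4 (0.0169). Ndufs4, known from Leigh syndrome, had a change of 0.15 (adjusted p = 0.0313), with signals of 3.00 to 3.19 in control and 3.15 to 3.27 in HX630 that overlapped. It passed with quantile normalization (0.23, adjusted p = 0.00243), cyclic loess (0.21, 0.00423) and spike-in scaling (0.37, 0.0048). It also passed with array weights (0.00456) and without control array 2 (0.00903), and not under the other settings. Ndufs5 had a change of 0.11 (adjusted p = 0.0231), and its signals of 4.65 to 4.77 in control lay below the 4.83 to 4.84 in HX630. It passed with quantile normalization (0.27, adjusted p = 5.82e-04), cyclic loess (0.22, 4.53e-04), spike-in scaling (0.33, 0.00145) and normexp with quantile normalization (0.41, 7.63e-05). It also passed with the 75th percentile of detected probes (0.00464), array weights (0.00572) and the methods' t-test (unadjusted p = 0.00431), and not under the other settings.

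In complex IV, 8 of 14 genes fell, 2 rose and 4 did not pass, with a median of -0.24. Leaving out the tissue isoforms Cox4i2, Cox6a2 and Cox7a1, the remaining 11 genes had a median of -0.29, 7 of them fell and none rose. Spike-in scaling brought these medians to -0.027 and -0.076.

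Cox8a, a small subunit, had signals of 6.95, 6.94, 6.75 and 6.86 in control and 6.38, 6.40, 6.39 and 6.46 in HX630. It fell by 0.46 (SE 0.050, adjusted p = 1.16e-04), to 72.5% of control, and its adjusted p was 0.0127 with spike-in scaling. Cox7b, likewise small, had signals of 5.43, 5.39, 5.28 and 5.40 in control and 4.96, 4.91, 4.95 and 4.96 in HX630. Cox7b fell by 0.43 (SE 0.041, adjusted p = 5.67e-05), and by 0.12 with an adjusted p of 0.0956 after normexp and quantile normalization together. The groups did not overlap for either gene. Cox5a and Cox5b, subunits on the matrix side, fell by 0.34 and 0.35. Ndufa4, in contrast, had signals of 3.67 to 3.91 in control and 3.74 to 3.80 in HX630, with a change of -0.05 (adjusted p = 0.463) that was 0.013 with quantile normalization.

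Both called members were muscle isoforms of complex IV. Cox6a2 had signals of -1.05, -0.85, -0.84 and -1.01 in control and -0.47, -0.13, -0.25 and -0.31 in HX630. All HX630 arrays lay above all control arrays. The rise was 0.65 (SE 0.082, adjusted p = 2.69e-04), to 157.1% of control, and it kept an adjusted p below 0.01 under every alternative, up to 0.00339. Cox7a1 had signals of 1.16, 1.27, 1.19 and 1.26 in control and 1.78, 1.81, 1.84 and 1.79 in HX630, also without overlap. It rose by 0.59 (SE 0.038, adjusted p = 6.45e-06), and its fold change of 1.502 stood at the threshold. Cox7a1 was not called with the authors' values, array weights, normexp and quantile normalization together or controls 3 and 4 only, nor without control array 1, control array 3 or HX630 array 3, which left 1 called member, while the change of Cox6a2 was 0.60 or more under every setting.

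The general forms of the same subunits moved the other way. Cox6a1 had signals of 7.89, 7.90, 7.62 and 7.74 in control and 7.39, 7.38, 7.39 and 7.40 in HX630. It fell by 0.40 (SE 0.065, adjusted p = 0.0012), with an adjusted p of up to 0.0821 under other settings. Cox7a2 had signals of 4.22, 4.29, 4.19 and 4.29 in control and 4.02, 4.06, 4.09 and 4.08 in HX630. It fell by 0.18 (SE 0.037, adjusted p = 0.00313), a sign that turned with normexp and quantile normalization together (0.069) and with spike-in scaling (0.032). The Cox7a2 fall did not pass without control array 4 (adjusted p = 0.0113) or HX630 array 2 (0.0122).

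A constant subtracted from all log2 signals of an array cancels in the difference between 2 genes, while quantile and loess normalization, which depend on the signal, do not cancel. The Cox6a2 signal minus the Cox6a1 signal was -8.93, -8.76, -8.46 and -8.76 in control and -7.85, -7.51, -7.64 and -7.71 in HX630. This difference rose by 1.05 (exact permutation test, two-sided, p = 0.0286, adjusted p = 0.0381 over 4 pairs, n = 4 per group). The Cox7a1 signal minus that of Cox7a2 was -3.06, -3.02, -3.002 and -3.03 in control and -2.25, -2.25, -2.25 and -2.28 in HX630, a rise of 0.77 with the same exact p = 0.0286 and adjusted p = 0.0381. Neither pair overlapped between groups, and 0.0286 is the smallest p that the 70 regroupings allow. The rises were 0.77 and 0.71 after quantile normalization, 0.83 and 0.70 after cyclic loess, and 0.74 and 0.50 after normexp correction and quantile normalization together, all with the same exact p = 0.0286. The size of such a difference says nothing on which paralog is more abundant, since the probes differ.

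Cox4i2 and its general form Cox4i1, whose product is among the first subunits of the assembling complex, both declined. Cox4i2 had signals of -1.97, -2.19, -2.30 and -2.23 in control and -2.52, -2.54, -2.67 and -2.66 in HX630, and fell by 0.42 (SE 0.077, adjusted p = 0.00201). With spike-in scaling the Cox4i2 change was -0.21 and did not pass (adjusted p = 0.0159). Cox4i1 had signals of 7.36, 7.31, 7.09 and 7.13 in control and 6.96, 6.93, 6.96 and 6.88 in HX630, and fell by 0.29 (SE 0.067, adjusted p = 0.00648), with a change of 0.011 after quantile normalization. The Cox4i1 fall did not pass without control array 1 (adjusted p = 0.0112), control array 2 (0.0183) or any single HX630 array (0.0141 to 0.0209). Their difference changed by -0.13 (exact p = 0.0857), and the groups overlapped. It changed by -0.39 after quantile normalization and by -0.31 after cyclic loess (exact p = 0.0286 in both), so that the call rested on the scaling.

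**Figure D4:**
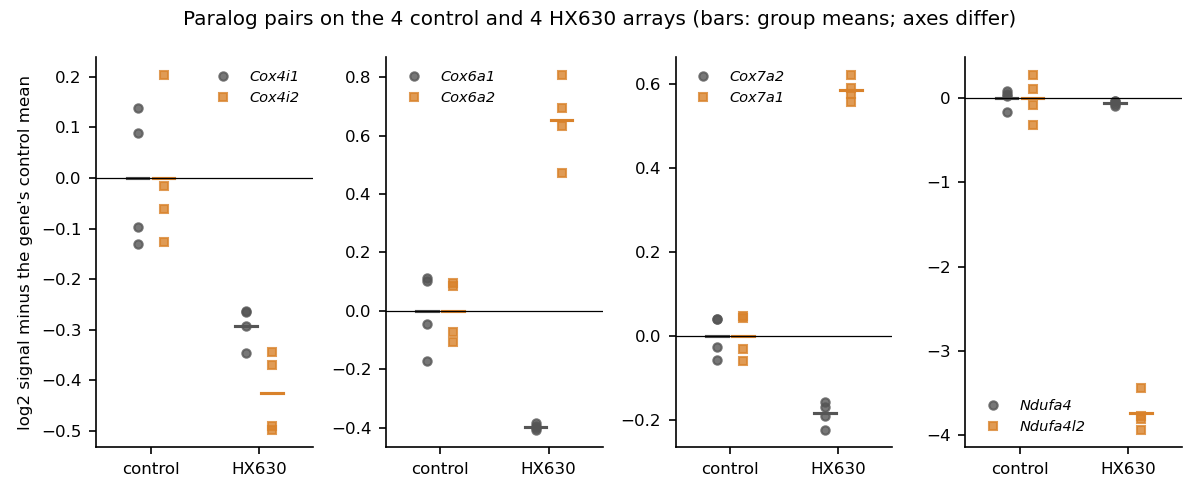
Log2 signal of paralog pairs minus each gene's own control mean, on 4 control and 4 HX630 arrays; each symbol is 1 array, short bars are group means and the vertical axes differ. Cox6a2 and Cox7a1 lie above their general forms Cox6a1 and Cox7a2 in HX630, and Ndufa4l2 lies far below Ndufa4.

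A paralog of Ndufa4 gave a much larger change than any of the 59. Ndufa4l2, best known as a gene induced in low oxygen, had signals of 1.24, 1.67, 1.84 and 1.48 in control and -1.89, -2.38, -2.26 and -2.22 in HX630. It fell by 3.75 (SE 0.15, adjusted p = 6.46e-07), to 7.45% of control. Its signal minus that of Ndufa4 changed by -3.69 (exact p = 0.0286, adjusted p = 0.0381). Cox8b, the muscle form of Cox8a, had signals of 5.03, 5.10, 5.00 and 4.99 in control and 2.46, 1.98, 2.01 and 2.15 in HX630. It fell by 2.88 (SE 0.10, adjusted p = 4.21e-07), to 13.6% of control, opposite to the other muscle isoforms. Of 7 tested genes in this list of further subunits and paralogs, 4 fell, 1 rose and 2 did not pass. The riser was Cox7b2, by 0.24 (adjusted p = 6.46e-04).

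Complex II and ATP synthase, the rest of the oxidative phosphorylation system, also declined. Of 21 tested genes of complex II (succinate dehydrogenase) and ATP synthase, 15 fell, 1 rose and 5 did not pass, with a median of -0.29 and none past the fold threshold. All 4 genes of complex II fell, Sdha by 0.41, Sdhb by 0.27, Sdhc by 0.33 and Sdhd by 0.39. The riser was Atpif1, the inhibitory factor of ATP synthase, with signals of 5.88 to 6.05 in control and 6.23 to 6.34 in HX630. It rose by 0.28 (SE 0.048, adjusted p = 0.0015).

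Assembly factors, which build the complexes but are not part of them, moved in both directions. Among 16 tested factors of complex I, 4 rose and 4 fell, which is near the shares of all genes (24.5% rose and 27.2% fell). Ndufaf2 was called higher, with signals of 1.40 to 1.46 in control and 1.98 to 2.06 in HX630 (log2 fold change 0.61, SE 0.034, adjusted p = 3.17e-06). Ndufaf4 was called lower, with signals of 2.14 to 2.41 in control and 1.52 to 1.61 in HX630 (-0.73, SE 0.060, adjusted p = 2.43e-05). Among 29 tested factors of complexes III and IV, 8 fell, again near the share of all genes, and 3 rose. Sco2, a copper chaperone of complex IV, fell by 0.98 (SE 0.035, adjusted p = 4.34e-07), while its paralog Sco1 rose by 0.43 (adjusted p = 2.18e-04). Higd1a, a hypoxia-inducible factor of complex IV, fell by 0.96 (SE 0.060, adjusted p = 6.04e-06).

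Among 24 genes that regulate respiratory genes or mitochondrial DNA, 14 fell, 1 rose and 9 did not pass, and 8 were called lower. Perm1, which acts with the PGC-1 coactivators and the estrogen-related receptors, had signals of 0.71, 0.51, 0.74 and 0.80 in control and -4.35, -5.83, -6.13 and -6.03 in HX630. It fell by 6.27 (SE 0.38, adjusted p = 4.47e-06), to 1.29% of control. Ppargc1a, which encodes the coactivator PGC-1α, had signals of 0.74, 0.49, 0.74 and 0.69 in control and -3.61, -4.53, -4.43 and -4.53 in HX630. Ppargc1a fell by 4.94 (SE 0.21, adjusted p = 7.91e-07), to 3.27% of control. Over all settings the changes ranged from -6.69 to -4.63 for Perm1 and from -5.16 to -4.03 for Ppargc1a. Both genes stayed well above background on all arrays, and the groups lay far apart. The receptor gene Esrrb fell by 2.40 (SE 0.049, adjusted p = 7.36e-08). The related Esrra fell by 0.98 (adjusted p = 1.15e-06) and Esrrg by 0.21 (adjusted p = 0.00398), and Ppargc1b, a further coactivator, fell by 2.02 (adjusted p = 1.76e-05).

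Other regulators gave smaller values. Nrf1, the factor of the motif above, fell by 0.18 (adjusted p = 0.00354). Of the GABP subunits, Gabpa fell by 0.49 (adjusted p = 1.94e-05), Gabpb2 fell by 0.42 and Gabpb1 rose by 0.36 (adjusted p = 1.39e-04). Yy1 (-0.04, adjusted p = 0.322) and Tfam, the packaging and transcription factor of mitochondrial DNA (-0.05, adjusted p = 0.268), did not pass. The changes of respiratory chain genes, at most 0.65 in size, were thus far below those of Perm1 and Ppargc1a, and no relation between them was tested.

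Ribosomal protein genes, another large group with bright probes, were set beside the 59. Of 80 tested cytosolic ribosomal protein genes, 32 fell and 1 rose, with a median of -0.19. Of 78 mitochondrial ribosomal protein genes, 33 fell and 9 rose, with a median of -0.10. Each list held 1 called gene, Rpl3l among the cytosolic (fell by 2.62, adjusted p = 6.42e-07) and Mrps18b among the mitochondrial (fell by 0.65, adjusted p = 3.11e-06). Over all settings the Rpl3l change ranged from -2.67 to -1.10. The median of the cytosolic list equalled that of the respiratory chain genes to 2 decimals.

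**Figure D5:**
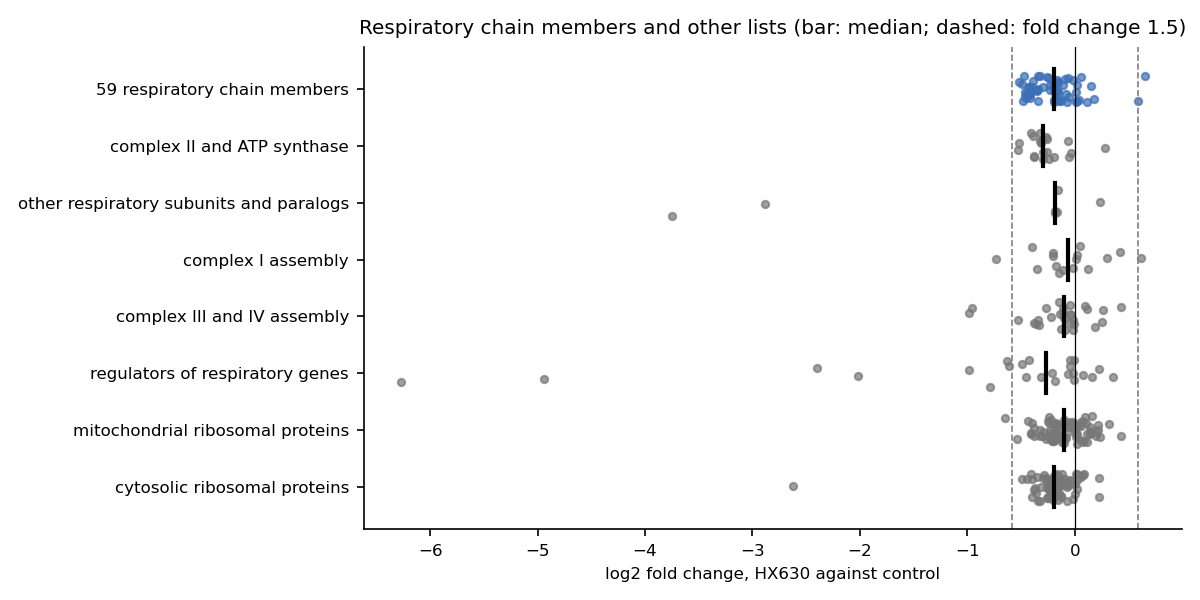
Log2 fold change of each tested gene, HX630 against control, in the 59 respiratory chain members (blue) and 7 other lists (grey); bars are medians, dashed lines a fold change of 1.5, and the vertical scatter within a list has no meaning. The members lie between -0.52 and 0.65, while Perm1 and Ppargc1a stand at -6.27 and -4.94.

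Some members varied widely between arrays of 1 group. Cox6b1 had signals of 2.55, 2.84, 2.89 and 2.90 in control and 2.27, 2.57, 2.80 and 2.76 in HX630, with array 1 lowest in both groups (change -0.19, SE 0.13, adjusted p = 0.244). Ndufb2 had 2.47, 2.80, 2.77 and 2.94 in control and 2.42, 2.53, 2.68 and 2.73 in HX630, again with array 1 lowest (change -0.15, SE 0.11, adjusted p = 0.269). For both genes each HX630 array lay below the control array of the same number, although the labels do not tie equal numbers together. The median standard error of the 59 genes was 0.043. Of the 13 members with more than 1 tested probe, Cox7c alone had probes that differed in sign, and none had probes that passed in opposite directions.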

How the data were processed

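The members and all gene lists were chosen with earlier results of these data known. The authors deposited, for every sample, an Agilent Feature Extraction 10.7.3.1 file with a processed intensity per spot after background subtraction, with no scaling between arrays. The authors' table of log2 values, made in GeneSpring per the paper, differed from the signals used here by a constant on each array (0.123 to 0.135), so its scale and direction were settled. Its columns had medians of -3.68 to -3.91, and it was used as an alternative.

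Each array holds 44397 spots. After removal of 1377 control spots and of outlier spots, the 75th percentile of the array was subtracted from the log2 intensity, and spots were averaged to 39429 probes, and the 28553 probes that cleared the background flag on 4 or more of 8 arrays were tested. No spot was saturated. Groups were compared with limma 3.58.1 in R 4.3.3 (lmFit, eBayes, Benjamini-Hochberg over all tested probes), without a replicate block. The thresholds follow the study's methods, the adjustment is added. Probes were named by RefSeq accession (26055 probes, 19751 genes; 15320 genes tested), through a table on GRCm38.p6, and the brightest tested probe stood for a gene. Nothing says that the samples were separate cultures beyond their labels, so p-values measure the spread between these samples. With 4 arrays a group, the array number sets the precision.

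Genes were named by rule: called members, the 3 highest and 3 lowest of each complex, the paralog pairs and Cycs, and up to 3 called genes in each other list. All other genes were chosen after their values were seen. On simulated data for HX630 against control (28543 probes), changes of 0.3 were recovered in 15% and changes of 1 in 69% of cases, with 1 false call. There, 100 probes changed by each size. In the real data 27.2% of genes fell and 24.5% rose, and with fewer changes the adjusted p is harder to pass. These shares thus do not give the recovery in the real data. Alternatives were other scalings, normexp correction with an offset of 50 on median signals followed by quantile normalization (both changed together), filters, variance models, the methods' t-test, probe averaging, the replicate block and each array left out. Spike-in scaling, controls 3 and 4 only, and the paralog differences under quantile and loess normalization were added after the data were seen. The NRF1 motif was first searched in its longer form and was shortened to its core after those values were seen; both are given. The study's pathway analysis and other experiments are not analysed here.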

Additional observations from a re-analysis of the deposited data

Results flagged for a closer look

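Among 66 groups of 4 arrays examined for the named genes, 4 held an array apart from the other 3, where chance gives about 1 in 20 groups, or 3.3 here. The gap to the nearest array, as a share of the range of the group, was above the 95% critical value of Dixon's test in each. For Ndufaf2 this share was 0.862, with HX630 array 4 at 1.98 and a mean of 2.06 on the others. For Sco2 it was 0.862, with HX630 array 3 at 1.87 against 1.90. Perm1 had a share of 0.832, with HX630 array 1 at -4.35 against -6.00, and Ppargc1a had 0.893, with the same array at -3.61 against -4.50. No member of the respiratory chain list was among them.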

How the results depend on the processing

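The 2 called members stayed 2 under most settings and were 1 under the authors' values, normexp correction followed by quantile normalization (below, normexp with quantile), array weights and controls 3 and 4 only, and 1 to 2 with single arrays left out; no member was called lower in any of these. With no fold threshold, 32 members were lower, and 5873 probes were higher and 7221 lower over all probes, against 2152 and 3160. Members that rose and fell at any fold numbered 7 and 16 under quantile normalization, 7 and 20 under cyclic loess, 9 and 17 under normexp with quantile, 9 and 7 under spike-in scaling (all probes 4195 and 1938 with the fold threshold). Those that fell numbered 19 with the median of each array, and those that rose 5 with array weights. Normexp with quantile gave 1639 called lower over all probes. With single arrays left out, 2 to 4 rose and 25 to 33 fell. The methods' t-test gave 4 and 36 at its unadjusted p, and 3 and 32 after Benjamini-Hochberg.

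Signs turned for Uqcrc1 (quantile 0.00034, median 0.0038, spike-in 0.14), Ndufa4 (quantile 0.013, loess and median 0.026, spike-in 0.16, controls 3 and 4 only 0.016), Cox4i1 (quantile 0.011), Uqcrq (normexp with quantile 0.072), Cox7a2 (normexp with quantile 0.069, spike-in 0.032) and Uqcrb (-0.0063 without HX630 array 3, in a range up to 0.042 with single arrays left out). The cause was not tested. The Cox4i2 to Cox4i1 difference changed by -0.40 under normexp with quantile, -0.39 with quantile alone and -0.31 with cyclic loess (exact p = 0.0286 in each), and by -0.17 to -0.10 with single arrays left out, passing without control array 2. With controls 3 and 4 only, the other pairs changed by 0.93, 0.76 and -3.86 (Cox6a2, Cox7a1, Ndufa4l2), at the smallest exact p that 2 against 4 arrays allow (0.0667).

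Deviations of arrays with the same replicate number correlated at 0.52, -0.0093, 0.24 and 0.38, and 5 of 8 arrays correlated best with their own number in the other group. As 1 pair was not above 0.1, the numbers were not taken to pair the samples. With the replicate block, 3 members rose, 29 fell and 2 were called. In all, comparisons of the named members kept direction and side in 481 cases, lost significance in 44, gained it in 12 and turned sign in 13, and the 275 for other named genes kept both.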

Other observations

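A few genes of the other lists had signals that varied with the array number in both groups, as Cox6b1 did. Atp5b, a catalytic subunit of ATP synthase, had signals of 4.99, 5.79, 6.0 and 5.94 in control and 4.56, 5.22, 5.95 and 5.83 in HX630 (change -0.29, SE 0.35, adjusted p = 0.504). Hccs, which attaches heme to cytochrome c, had 5.41, 6.11, 6.37 and 6.23 in control and 5.00, 5.64, 6.54 and 6.43 in HX630 (change -0.13, adjusted p = 0.784). Ttc19, a complex III factor, had 3.202, 3.83, 4.49 and 4.09 in control and 2.77, 3.71, 4.60 and 4.38 in HX630 (change -0.04, adjusted p = 0.943). In each gene, array 1 was lowest and array 3 highest in both groups. These genes were chosen after their values were seen.

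When all genes were cut by brightness into 10 sets of 1532, the median change was -0.16 in the dimmest set, 0.043 in the sixth and -0.10 in the brightest, so that it did not run in 1 direction with signal.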
